A study of Homo sapiens with 6 samples.

Results

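Keratins were examined in HCT116, an established human colon cancer cell line, through 11 probe sets of 8 genes, out of 22215 probe sets on the array. The genes were chosen by name as the keratins of colon epithelium and its tumours, together with KRT10, KRT15, KRT17 and KRT23, and every probe set annotated to one of those symbols alone was taken. For KRT17, a keratin of stressed and regenerating epithelia, no probe set was annotated to the gene alone, and it was not analysed here. In total RNA, 3 arrays of cells carrying a lentiviral hairpin against NFX1-91 (the vector is FUGW) were set against 3 arrays of control cells. The control cells carried a hairpin to β-galactosidase, so both groups had taken up the vector and expressed a hairpin. All cells grew in DME medium with serum and antibiotics. NFX1-91 is a splice form of the zinc finger protein NFX1. Each group stands for a single hairpin, and whether its cells were a clone or a pool is not stated. The labels do not tell whether the replicate arrays were separate cultures, so p-values cover the spread among arrays alone, part or all of which could be technical.

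Keratins are the intermediate filament proteins of epithelial cells. A filament is built from pairs of an acidic type I and a basic type II keratin, and a keratin left without a partner is degraded. Simple epithelia such as the lining of the colon carry KRT8, a type II keratin, paired with the type I keratins KRT18 and KRT19, while KRT20 marks differentiated enterocytes and KRT7 is mostly a keratin of ducts. KRT10 is the type I keratin of the upper epidermis, where it pairs with KRT1. KRT15 belongs to basal cells of layered epithelia, and KRT23 is a type I keratin found in some gastrointestinal tumours. In the table of RefSeq genes KRT7, KRT8 and KRT18 lie on chromosome 12 and the other 6 named genes on chromosome 17.

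In cells with the NFX1-91 hairpin, KRT18, KRT8 and KRT7 were higher and KRT20 and KRT10 were lower than in control cells. KRT18 gained 45.1% and KRT8 27.2% of its control signal. KRT20, whose signal was dim, lost 44.6%, and the 2 KRT10 probe sets that passed the test lost 14.5% and 12.2%. KRT19, KRT15 and KRT23 did not pass. Of the 11 probe sets 3 were higher, 3 lower and 5 not called by limma at an adjusted p under 0.05 (Benjamini-Hochberg over all 22215 probe sets). Among all probe sets 12.0% were higher and 13.7% lower, 25.7% in either direction, so a share of 6 in 11 has to be read against a comparison in which calls were common, the more so among bright probe sets. Of the 2222 brightest probe sets 48.9% were called, and 4 of the 6 keratin probe sets among them were. The control and NFX1-91 arrays did not overlap for 8 of the 11 probe sets, 3 of them readings of KRT10, against 39.0% of all probe sets. That share was not taken among bright probe sets alone, so it is not matched to the 6 bright keratin probe sets. The median log2 difference was 0.05 over the 11 probe sets and 0.01 over all.

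Promoter sequence was at hand for 3 of these genes, 1 that rose and 2 that fell, and is shown so that these can be compared at the level of their starts. The 250 bases before the start listed by RefSeq (GRCh38.p14) are given 5′ to 3′ for KRT8 (chr12:52926470-52926719, minus strand), KRT10 (chr17:40822615-40822864, minus strand) and KRT20 (chr17:40885243-40885492, minus strand). Capitals mark matches to 5 motifs searched on both strands: TATAAA, found in many core promoters, CCAAT, bound by NF-Y, GGGCGG, bound by SP1, CACGTG, bound by MYC and its relatives, and TGACTCA, bound by AP-1.
KRT8: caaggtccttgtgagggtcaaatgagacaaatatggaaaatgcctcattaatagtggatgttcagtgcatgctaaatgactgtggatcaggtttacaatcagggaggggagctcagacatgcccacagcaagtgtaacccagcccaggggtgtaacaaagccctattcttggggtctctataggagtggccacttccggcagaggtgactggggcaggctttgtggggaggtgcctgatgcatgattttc
KRT10: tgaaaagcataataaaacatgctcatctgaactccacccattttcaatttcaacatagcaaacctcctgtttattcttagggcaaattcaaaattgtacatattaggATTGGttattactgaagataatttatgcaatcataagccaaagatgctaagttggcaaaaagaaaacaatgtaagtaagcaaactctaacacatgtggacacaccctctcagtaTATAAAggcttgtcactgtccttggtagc
KRT20: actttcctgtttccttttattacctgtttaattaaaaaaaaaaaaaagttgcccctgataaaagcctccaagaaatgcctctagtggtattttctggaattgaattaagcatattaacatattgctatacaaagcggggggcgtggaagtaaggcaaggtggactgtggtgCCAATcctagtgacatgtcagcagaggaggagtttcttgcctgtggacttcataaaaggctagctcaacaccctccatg
The KRT10 sequence held a TATAAA 29 bases before the start and a CCAAT on the opposite strand 143 bases before it. The KRT20 sequence held a CCAAT 79 bases before the start, and none of the 5 motifs was found in the KRT8 window. Of all 35116 listed promoters 10.7% held TATAAA, 32.0% CCAAT, 42.6% GGGCGG, 6.34% CACGTG and 4.20% TGACTCA. GC content was 50.4% for KRT8, 34.8% for KRT10 and 41.2% for KRT20, with a median of 58% over all. A match is a run of letters and not a shown binding site, and KRT8 has several annotated transcripts, so which start these cells use was not tested.

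Signals below are the deposited intensities multiplied so that each array averages 500, and log2 differences (NFX1-91 shRNA minus control shRNA) were taken after adding 16 to each signal. The added 16 shrinks the differences of dim probe sets. In bulk RNA, fewer cells with a transcript and less of it per cell cannot be told apart. A signal on such arrays depends on the probe, so signals of different probe sets are not compared as transcript amounts. Arrays of a group correlated at 0.992 to 0.995 and arrays of different groups at 0.983 to 0.985 (Pearson, log2 scale, all probe sets). Of the 3 NFX1 probe sets, which may read several splice forms, the dimmest fell from 19.6 to 7.42 (adjusted p = 0.0137 by limma) and the others did not pass (adjusted p = 0.40 and 0.775). Lists of genes are given by the brightest probe set of each gene, and of all 11963 genes read so 13.4% were higher and 16.6% lower, 30.0% in either direction. Of 9 colon epithelium markers 2 were called, EPCAM (4350 in control arrays) and CDH1 (647), both lower with the NFX1-91 hairpin (log2 differences -0.15 and -0.50). The other CDH1 probe set was not called (-0.45), and VIL1, LGALS4, CDH17 and GPA33 averaged below 16 in these cells.

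The type II keratin KRT8, the main partner of KRT18 in simple epithelia, read 5627, 5360 and 5681 on the control arrays and 7029, 6965 and 7199 on the NFX1-91 arrays (probe set 209008_x_at). All 3 NFX1-91 arrays lay above all control arrays, with a gap of 1284 between the groups. The means were 5556 ± 172 and 7065 ± 121 (SD, n = 3 per group), and the log2 difference was 0.35 (SE 0.033, 95% interval 0.27 to 0.42, limma adjusted p = 0.000116). KRT7, the other type II keratin, read 294, 301 and 278 on the control arrays and 346, 359 and 390 on the NFX1-91 arrays with its brighter probe set (209016_s_at). Again the groups did not overlap, and the log2 difference was 0.31 (SE 0.072, adjusted p = 0.0127 by limma). Without NFX1-91 replicate 2 the log2 difference was 0.32 and the adjusted p 0.0522, and the call held when any other single array was left out. The dim KRT7 probe set (214031_s_at) read 3.30, 5.01 and 1.12 against 4.96, 1.43 and 5.91, below the offset of 16 on every array, and gave no call (log2 difference 0.07, 95% interval -0.24 to 0.38, adjusted p = 0.787 by limma).

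KRT18, the type I partner of KRT8 and the brightest of the 11, had control signals of 7944, 7270 and 6995 and NFX1-91 signals of 10689, 10798 and 10731 (201596_x_at). The coefficient of variation was 0.51% among the NFX1-91 arrays and 6.60% among the control arrays, and the groups did not overlap. The means were 7403 ± 488 and 10739 ± 54.8, a log2 difference of 0.54 (SE 0.044, 95% interval 0.44 to 0.64, limma adjusted p = 5.61e-05). The highest signal of any probe set was between 12361 and 13542 on the 6 arrays, so KRT18 lay near the top of the measured range, and whether the bright end compressed its change was not tested. Among the 1111 brightest probe sets the 95th percentile of the log2 difference was 0.33. Both KRT18 and KRT8 lay above it, and KRT19 lay near that bin's median of 0.05.

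**Figure D1:**
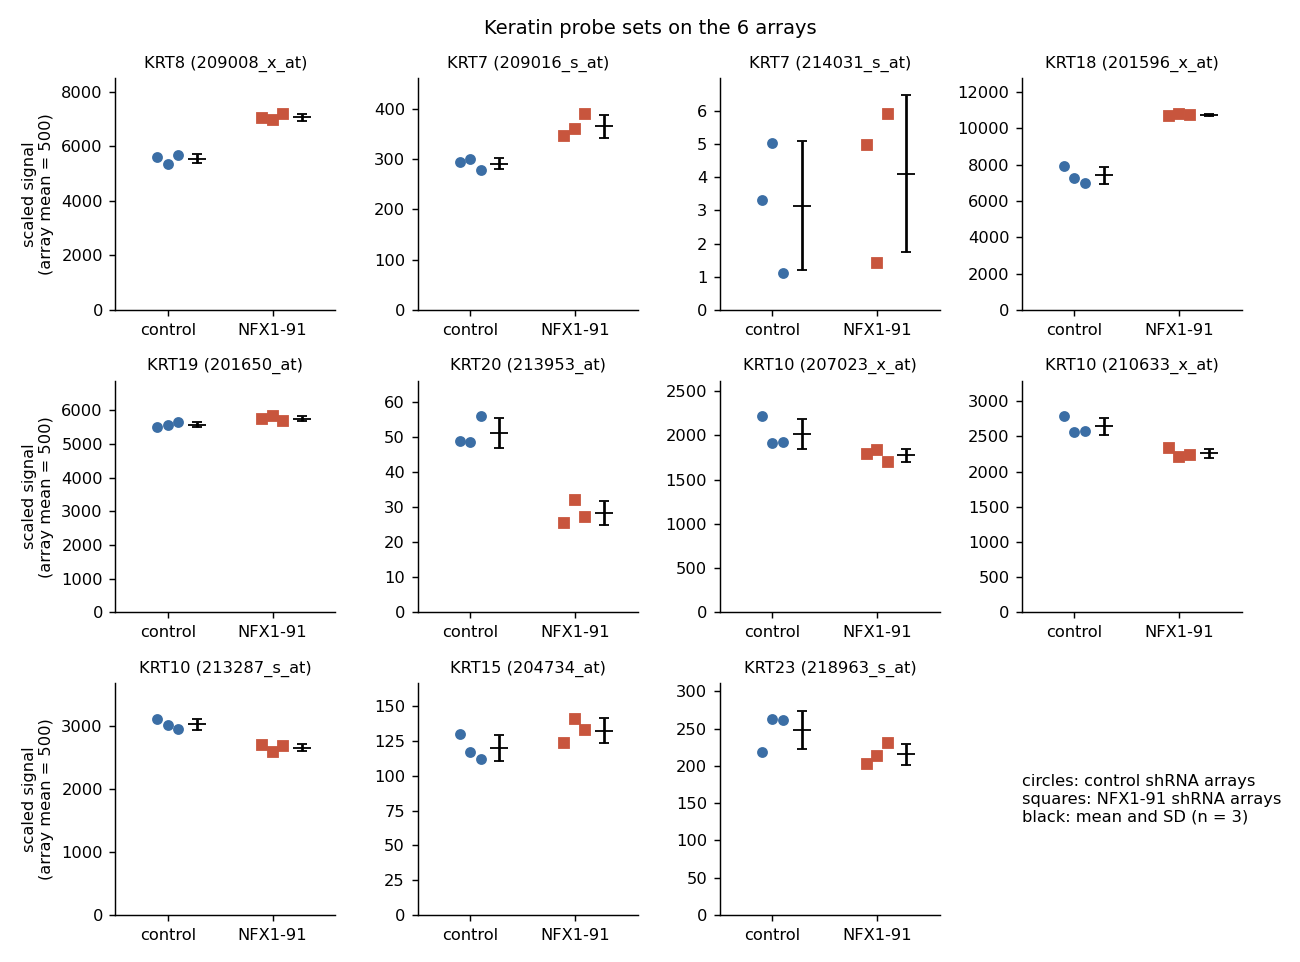
Scaled signal (array mean 500, linear axes from 0) of each keratin probe set on the 3 control shRNA arrays (circles) and the 3 NFX1-91 shRNA arrays (squares), with the mean and SD of each group in black (n = 3). KRT18 rises from 7403 to 10739 and KRT20 falls from 51.1 to 28.3 with no overlap, while KRT15 and KRT23 overlap and the dim KRT7 probe set stays under 6.

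Since KRT8 and KRT18 form one filament, their changes were set against each other within each array. The rise of KRT18 exceeded that of KRT8 by 0.19 on the log2 scale, and this within-array difference did not overlap between groups (exact two-sided permutation p = 0.1, the smallest that 3 against 3 arrays allow). Its SD was 0.101 among control arrays and 0.028 among NFX1-91 arrays. Adjusted over the 5 pairs of probe sets compared in this way, the p was 0.25, and a p of 0.05 was out of reach at these group sizes.

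KRT19, the smallest keratin and the other type I keratin of the colon lining, barely moved. Its control signals were 5509, 5550 and 5652 and its NFX1-91 signals 5734, 5819 and 5691 (201650_at). The NFX1-91 arrays were all above the control arrays, but by only 39.4 units, and the difference of 3.19% did not pass (log2 difference 0.05, SE 0.028, 95% interval -0.02 to 0.11, adjusted p = 0.308 by limma). The upper end of that interval lies below the lower ends of those of KRT8 and KRT18.

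KRT20, the type I keratin of mature enterocytes and goblet cells, was dim and fell. Control arrays read 48.8, 48.5 and 55.9 and NFX1-91 arrays 25.5, 32.1 and 27.2 (213953_at). The groups were 16.4 units apart, and the control mean of 51.1 ± 4.19 was 1.81-fold the NFX1-91 mean of 28.3 ± 3.43. The log2 difference was -0.60 (SE 0.126, 95% interval -0.89 to -0.31, limma adjusted p = 0.00759). Because the signals lie near the offset, that value ran from -0.86 with no offset to -0.32 with an offset of 64, and the call held in both. The signals also lay below the array medians of 82.7 to 86.4. Among keratins of skin and hair, KRT9 read 74.5 in both groups and KRT32 fell by a similar log2 difference of -0.63. Whether the KRT20 signal stands above background was not tested.

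KRT10, the type I keratin of suprabasal epidermis, was read by 3 probe sets and all 3 were lower on every NFX1-91 array. With 213287_s_at the control arrays read 3117, 3009 and 2952 and the NFX1-91 arrays 2698, 2590 and 2679. This was a log2 difference of -0.19 (SE 0.037, adjusted p = 0.00597 by limma). With 210633_x_at the signals were 2788, 2570 and 2576 against 2337, 2210 and 2237, a log2 difference of -0.22 (SE 0.045, adjusted p = 0.00627 by limma). With 207023_x_at they were 2216, 1916 and 1928 against 1784, 1835 and 1697, and the log2 difference of -0.18 did not pass (SE 0.062, adjusted p = 0.0598 by limma). Control replicate 1 stood above the other control arrays, and without it the difference was smaller and again did not pass (-0.12, adjusted p = 0.0930 by limma). Over all 6 arrays the 3 probe sets differed from one another in their change by at most 0.04 (exact permutation p from 0.2 to 1). Such a p cannot go below 0.1 with 3 against 3 arrays, so it does not show that the changes were alike. Without control replicate 1 the changes were -0.17 for 213287_s_at, -0.19 for 210633_x_at and -0.12 for 207023_x_at. Both KRT10 calls were lost when the variance was not modelled by brightness (adjusted p = 0.0625 and 0.0815). KRT1, the epidermal partner of KRT10, was dim in both groups, at 26.9 ± 2.49 and 19.8 ± 9.02, and did not pass (adjusted p = 0.342 by limma).

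KRT15, the type I keratin of basal cells, read 130, 117 and 112 on control arrays and 123, 141 and 133 on NFX1-91 arrays (204734_at). The groups overlapped, and the log2 difference of 0.13 did not pass (95% interval -0.10 to 0.36, adjusted p = 0.424 by limma). KRT23 read 218, 263 and 262 on control arrays and 203, 213 and 231 on NFX1-91 arrays (218963_s_at), with control replicate 1 lying among the NFX1-91 values. Its log2 difference was -0.19 (95% interval -0.40 to 0.03, adjusted p = 0.206 by limma). Without that control array it was -0.27 with an adjusted p of 0.0457, so 1 array decided on which side of the threshold KRT23 lay.

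**Figure D2:**
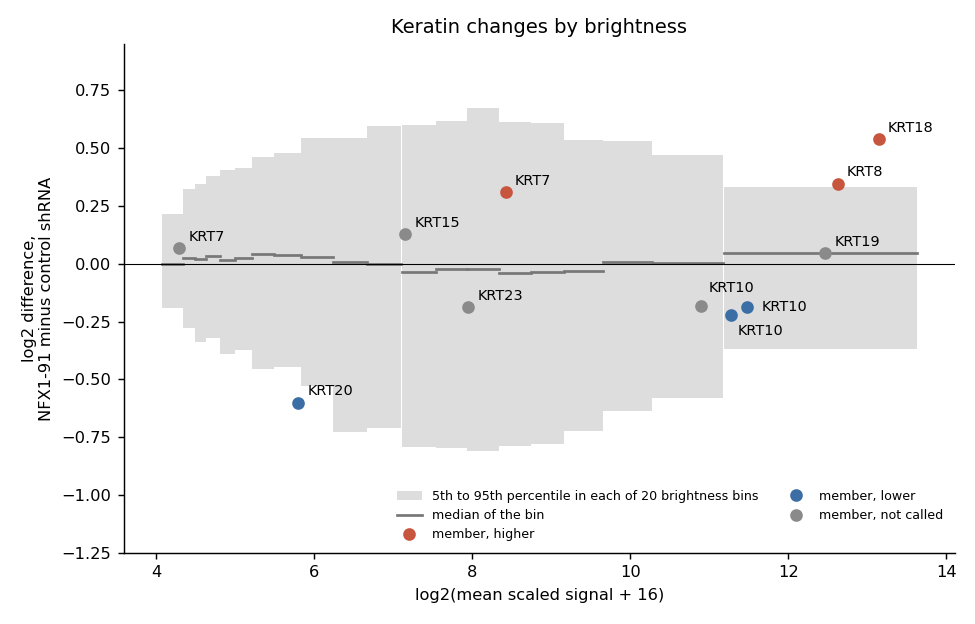
Log2 difference (NFX1-91 minus control shRNA) of the 11 keratin probe sets against log2(mean scaled signal + 16), over the 5th to 95th percentile (grey band) and median (line) of all probe sets in 20 equal bins of brightness. KRT18 (0.54) and KRT8 (0.35) lie above the band of the brightest bin, KRT20 (-0.60) lies below that of its bin, and the 8 other probe sets lie inside theirs.

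Of the 11 probe sets 4 have names ending in _x_at and 4 in _s_at, Affymetrix's marks for probes that may bind other sequences or that are shared by related transcripts. The KRT8, KRT18 and 2 of the KRT10 probe sets are of the first kind, and KRT8 and KRT18 have many processed pseudogenes, so their signals may hold more than 1 transcript. The part of this in the changes was not tested. KRT18, KRT8, KRT19, KRT20, KRT15 and KRT23 each had a single probe set, so only KRT10 offered readings of one gene at a comparable brightness.

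The other keratins on the array, which serve skin, hair, cornea and oral epithelium, gave little signal. Of their 25 probe sets, for 24 genes, 15 averaged below 16, and 1 was called, beside 25.7% of all probe sets. Calls were fewer among dim probe sets, from 0.09% to 21.2% in the brightness bins that hold these. The chosen and the other keratins were therefore not compared at like brightness. KRT32, a hair keratin, fell from 36.3 ± 6.0 to 17.8 ± 3.68 (log2 difference -0.63, SE 0.146, adjusted p = 0.0124 by limma), with all NFX1-91 arrays below all control arrays. KRT9, of palm and sole skin, was the brightest at 74.5 in both groups. The basal keratins KRT5 (10.3 and 13.1) and KRT14 (1.14 and 3.99) were under the offset. Of 6 measured keratinocyte markers 0 passed in either direction by limma, 0 of them at an unadjusted p under 0.05, and their summed signal was 73.6 to 84.0 on control arrays and 66.1 to 94.9 on NFX1-91 arrays, with KRT5, KRT14 and DSG3 below 16. Of 7 fibroblast markers 0 passed, with 0 at an unadjusted p under 0.05, and their sum was 254 to 344 and 288 to 336. Among 6 blood cell markers haemoglobin HBB passed (31.9 to 49.9, adjusted p = 0.0470 by limma), though neither of its other probe sets did (log2 differences 0.07 and 0.38). PTPRC, CD14, CD79A and LYZ averaged below 16, and the sum was 92.4 to 109 and 113 to 144. The part of these markers in the keratin changes was not tested.

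**Figure D3:**
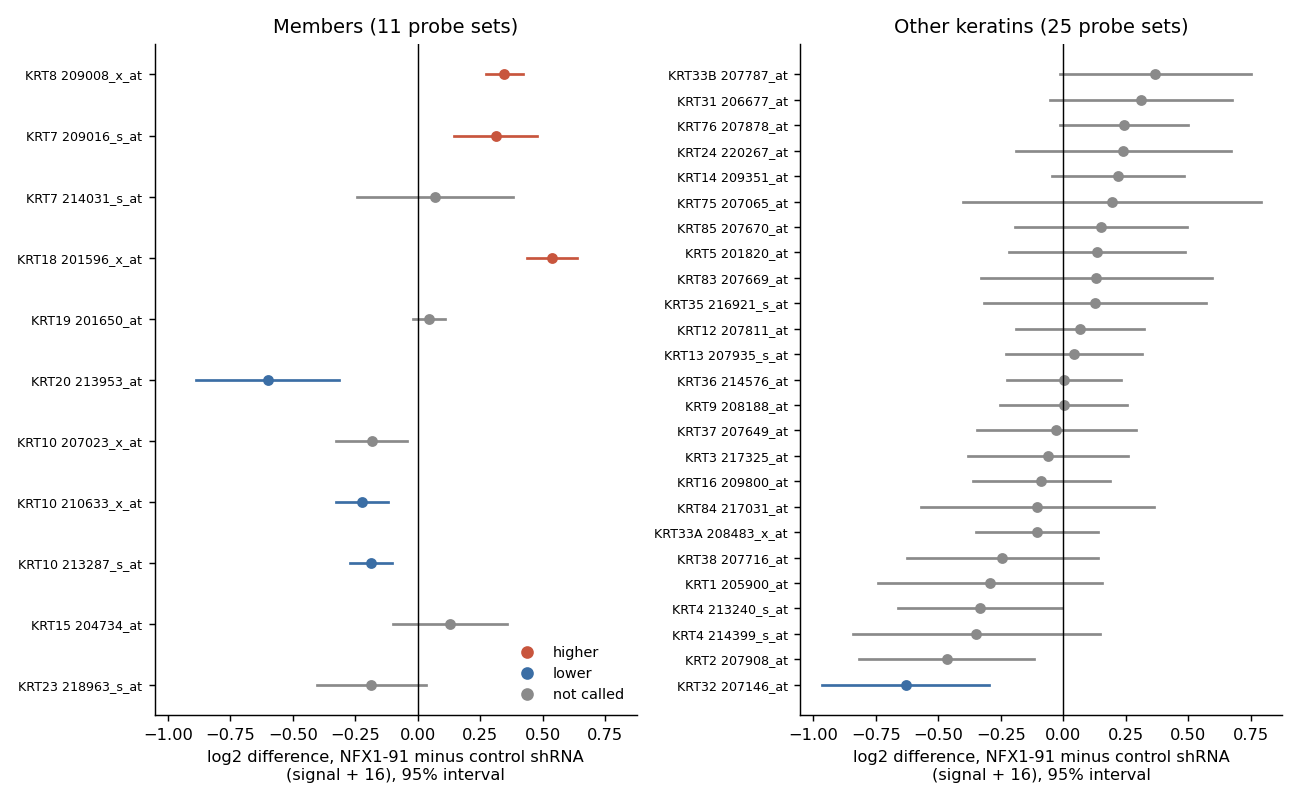
Log2 difference (NFX1-91 minus control shRNA, signal + 16) with its 95% interval from limma for the 11 probe sets of the chosen keratins and the 25 of other keratins, coloured by the call at an adjusted p under 0.05. Among the chosen keratins 3 are higher and 3 lower, and among the others KRT32 alone is called. Over all probe sets 25.7% are called, and fewer among dim probe sets such as those of the other keratins.

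Of 14 other intermediate filament genes 1 was higher and 0 lower, with a median of 0.02, beside 30.0% of all genes called. Only 7 of the 14 were brighter than the median probe set and 3 averaged below 16. Calls were fewer among dim probe sets, so that share is not matched to their brightness. LMNA, which encodes nuclear lamins A and C, rose from 1299 ± 30.7 to 1701 ± 52.4 (log2 difference 0.39, adjusted p = 0.000280 by limma). Of its 3 other probe sets 2 were called higher and 1 was not called (-0.07 to 0.69). VIM, the filament of mesenchymal cells, read 211 ± 6.78 and 256 ± 33.5 (log2 difference 0.25, adjusted p = 0.0999).

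Keratin filaments end on desmosomes, where plakins and armadillo proteins tie them to the cadherins of cell junctions. Of 16 desmosome and plakin genes 2 were higher, 2 lower and 12 not called, with a median of 0.10, beside 1606 higher and 1982 lower of 11963 genes and a median of 0.00 over all. Desmoplakin DSP, the plakin that holds keratin filaments at the desmosome, rose from 1152 ± 96.3 to 1443 ± 65.7 (log2 difference 0.32, adjusted p = 0.00689 by limma), and envoplakin EVPL rose by 0.50. Plakoglobin JUP fell from 797 ± 91.8 to 639 ± 17.0 (log2 difference -0.31, adjusted p = 0.0237 by limma), and PKP4, an armadillo protein of junctions, fell by 0.35. The cadherin DSG2 (1400 and 1384) and the cytolinker PLEC (708 and 715) differed by less than their SD.

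At hemidesmosomes, which anchor keratin filaments to the basement membrane, 3 of 4 measured genes of this list rose and 0 fell (median 0.37). The list was drawn up with earlier results of these data known. PLEC, which also serves hemidesmosomes, was counted with the desmosome genes and did not pass (708 and 715, adjusted p = 0.961 by limma). Of all genes 13.4% were called higher and 16.6% lower. Calls were common at their brightness, between 49.6% and 52.4% of probe sets in the bins that hold these genes. ITGA6, the integrin α chain of the hemidesmosome, rose from 843 ± 17.5 to 1902 ± 83.1 (log2 difference 1.16, SE 0.048, adjusted p = 2.71e-06 by limma), and its other probe set gave 1.48. Its β partner ITGB4 rose by 0.34, though none of its 3 other probe sets was called. The plakin DST rose by 0.40, and 4 of its 7 other probe sets were called higher and 3 were not called (-0.09 to 1.03). The tetraspanin CD151 read 633 and 617 and did not pass (adjusted p = 0.795 by limma).

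Among 7 measured genes whose products bind or cleave keratins, 2 were higher and 1 lower (median 0.02), beside 30.0% of all genes called in either direction. In the brightness bins that hold the called genes, 45.4% and 49.6% of probe sets were called. DNAJB6, a co-chaperone that binds KRT18, rose from 461 ± 7.10 to 780 ± 55.3 (log2 difference 0.74, adjusted p = 7.30e-05 by limma). Stratifin SFN rose by 0.32 and YWHAZ fell by 0.42, both from an adaptor family that binds phosphorylated KRT18. CASP6, a caspase that cuts KRT18, read 481 and 484.

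Of 13 measured transcription factors known to act on keratin genes or in keratin-rich epithelia, 1 was higher and 3 lower (median -0.13), a share of calls near the 30.0% over all genes. GRHL2 fell from 225 ± 10.0 to 99.9 ± 7.84 (log2 difference -1.06, adjusted p = 7.65e-05 by limma). TFAP2A fell by 0.60, with neither of its other probe sets called, and KLF5 fell by 0.34, with its other probe set at 0.07. TFAP2C rose from 151 ± 17.4 to 271 ± 22.4 (log2 difference 0.78, adjusted p = 0.000686 by limma), by both of its probe sets. The intestinal factors CDX1 (45.5 and 62.0) and CDX2 (66.9 and 72.3), of which CDX2 acts in enterocyte differentiation, did not pass (adjusted p = 0.0673 and 0.633).

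**Figure D4:**
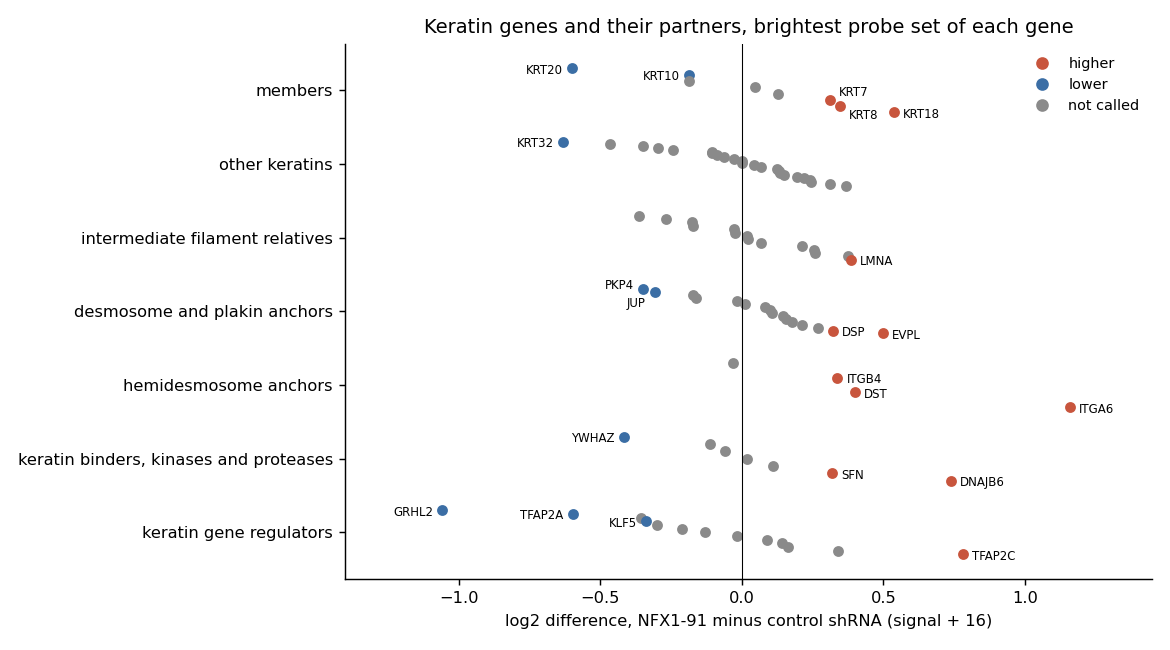
Log2 difference (NFX1-91 minus control shRNA, signal + 16) of the keratin genes and of the lists of their relatives, anchors, binders and regulators, each point being the brightest probe set of 1 gene, named where it passed an adjusted p of 0.05. In the hemidesmosome list 3 of 4 genes are higher, beside 13.4% of all genes. In the brightness bins of these genes between 49.6% and 52.4% of probe sets were called in either direction. PLEC, not called, is counted in the desmosome list. GRHL2 (-1.06) and ITGA6 (1.16) lie farthest out.

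The genes whose signal followed a keratin most closely over the 6 arrays were sought among 9981 single-gene probe sets brighter than the median, by Pearson correlation on the log2 scale, as a description. For KRT18 these were RPP30, a subunit of RNase P, the adhesion receptor ADGRE5 and KCTD2, with r of 0.9991, 0.9991 and 0.9989. For KRT8 they were the matrix proteins THBS1 and FSTL1 and the nuclear transport GTPase RAN (r of 0.9998, 0.9988 and 0.9989), although 2 of the 4 other THBS1 probe sets were not called and the other RAN probe set fell. For KRT19 they were MFN1, SEC63 and CLCC1 (r from 0.992 to 0.995). Such values were common where the groups differed: 893 candidates had r over 0.95 with KRT18 and 834 with KRT8, against 87 with KRT19. All of these points share the same 6 arrays and the same difference between groups.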

How the data were processed

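The authors deposited 1 intensity per probe set and array on a linear scale. Each deposited column sums to 1, so a value is a share of its array's signal. Biotin-labelled cRNA was hybridised to Affymetrix arrays, per the labels' protocols. The summary method and software are not given in any source used here. Between 397 and 451 values of an array repeat 1 low value, which none of the keratin values did. The number of arrays limits the precision.

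Each array was scaled to a mean of 500 and log2(signal + 16) was taken, without further normalization. Groups and replicate numbers came from the labels. R 4.3.3 and its package limma 3.58.1 fitted all 22215 probe sets without pairing, through lmFit and eBayes, with the variance trended on brightness. Two-sided p-values were adjusted over all of them by Benjamini-Hochberg, and calls were made under 0.05. Intervals are limma's at 95%. Of the probe sets, 19064 were annotated to 1 gene, 1043 to several and 2108 to none listed. Of the first, 19052 matched RefSeq genes (GRCh38.p14) by identifier, and 0 symbols changed. Lists use the brightest single-gene probe set of a gene. Of the 18 partner and marker genes called, 12 had further probe sets: a further one gave the same call in 7 of them and the opposite call in 0.

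The named genes were every keratin probe set of the chosen symbols, the NFX1 probe sets, up to 4 called genes with the smallest adjusted p from each list, and the 3 probe sets most like KRT8, KRT18 and KRT19 each. Other genes are named for their role and were chosen after their values were seen. The keratins and lists were chosen with earlier results of these data known. The scaling follows such earlier work too. The fit was tested on simulated data. Figures were drawn with matplotlib 3.10.9 in Python 3.11.15.

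As alternatives, arrays were quantile normalized or median centred, the dimmest 40% of probe sets were dropped, the offset was 1, 64 or none, and the fit was run with no variance trend, a robust prior, array weights, 1 probe set a gene, a replicate block or 1 array left out.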

Additional observations from a re-analysis of the deposited data

How the results depend on the processing

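Of 182 values of the 11 keratin probe sets under the alternatives, 173 kept their direction and their side of the threshold, 3 lost and 4 gained a call, and 2 reversed. KRT8 and KRT18 kept theirs in every alternative run, with highest adjusted p-values of 0.0108 and 0.00381, and KRT20 in all 16 that could give it a value. Without a variance trend 1 keratin probe set was called lower, where the main comparison had 3. The 2 lost were KRT10 probe sets, whose log2 differences stayed at -0.22 and -0.19, so this setting changed their p-values and not their differences. Leaving out 1 array at a time, 2 to 3 were higher and 3 to 4 lower, and KRT18 exceeded KRT8 by 0.14 to 0.23. The dim KRT7 probe set reversed with array weights (-0.0648), and ran from -0.00998 to 0.17 when arrays were left out. KRT10 by 207023_x_at was called with dim probe sets left out (adjusted p = 0.0324) or a robust prior (0.0354), and KRT23 with array weights (0.0308). Over all probe sets 2656 were higher and 3047 lower. With 1 probe set a gene, which tests fewer, 1762 were higher, and leaving out arrays gave 1669 to 2761 higher and 2187 to 3201 lower, the fewest without NFX1-91 replicate 2. With the replicate block 3 keratin probe sets were higher and 3 lower, as without it, and 2265 and 2649 of all. Same-numbered arrays deviated with correlations of -0.06, 0.09 and -0.09, so the numbers were not taken to pair the arrays. Signals below the offset of 16, as for 1 keratin probe set, limit what can be seen.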

Other observations

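Keratin pseudogenes and the keratin-associated proteins, which form the matrix of hair, lay outside the chosen genes. Of 11 probe sets annotated to them or to a keratin together with another gene, 8 averaged below 16 and 0 were called by limma. KRT8P12, a KRT8 pseudogene, read 59.2 ± 1.17 on control arrays and 72.3 ± 14.8 on NFX1-91 arrays (log2 difference 0.22, SE 0.138, adjusted p = 0.312). KRT19P2, a KRT19 pseudogene, read 21.5 ± 2.95 and 22.5 ± 2.50 (adjusted p = 0.888). The brightest of the others, KRTAP5-8, read 90.9 ± 8.23 and 93.9 ± 5.86 (adjusted p = 0.840).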
